A study of Mus musculus with 8 samples.

Results

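The genes described here are 38 genes known to be induced by low oxygen whose products act outside glycolysis. They were listed by name and matched to array probes through RefSeq accessions, with *Ero1l* found under its newer symbol *Ero1a*. All 38 had a probe, 54 probes in all, and 35 genes had at least 1 probe bright enough to test, of 15320 genes tested on the array. The cells were AtT20, a mouse line of pituitary corticotroph tumor cells that secrete ACTH. Total RNA came from 4 control samples and from 4 samples incubated for 48 hr with 10 μM HX630, a synthetic pan-agonist of the retinoid X receptors (RXRs) that was dissolved in DMSO. Both groups were kept for that time in DMEM with 1% stripped FBS, and the only difference the labels give is the agonist. Each sample was labeled with Cy3 and hybridized to 1 array. No low-oxygen treatment is named for either group. The question here is where genes of the hypoxia response stood in HX630-treated cells relative to control cells.

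Hypoxia-inducible factor (HIF) is a pair of proteins, an alpha subunit (HIF-1α or HIF-2α) and its stable partner ARNT. In oxygen the alpha subunit is hydroxylated by the EGLN enzymes, recognized by VHL and degraded. When oxygen is scarce it persists, binds DNA with ARNT at hypoxia response elements, and raises genes that adjust pH, blood supply, collagen processing, mitochondria and growth, some of which also answer to other signals.

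The core of a hypoxia response element reads ACGTG or GCGTG on either strand. Promoter sequences from RefSeq (build GRCm38.p6), running from 250 bases before a start site to 50 after it, were found for 30 of the 38 genes, which had 41 such promoters. Those of *Bnip3l*, *Lox*, *Plod2*, *Loxl2*, *Ndrg1*, *Bhlhe40*, *Kdm4b* and *Stc1* are not shown. The 4 below belong to the genes with the largest called falls among those with a promoter that held a core, and they are printed 5′ to 3′ on the strand of the gene, with every core in capitals.
*Car9*, chr4:43506776-43507075, plus strand: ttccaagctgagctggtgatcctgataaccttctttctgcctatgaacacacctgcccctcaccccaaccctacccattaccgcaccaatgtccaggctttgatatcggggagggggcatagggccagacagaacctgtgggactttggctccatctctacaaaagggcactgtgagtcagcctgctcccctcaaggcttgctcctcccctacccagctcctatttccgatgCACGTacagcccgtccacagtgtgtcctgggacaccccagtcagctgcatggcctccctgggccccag
*Egln3*, chr12:54203825-54204124, minus strand: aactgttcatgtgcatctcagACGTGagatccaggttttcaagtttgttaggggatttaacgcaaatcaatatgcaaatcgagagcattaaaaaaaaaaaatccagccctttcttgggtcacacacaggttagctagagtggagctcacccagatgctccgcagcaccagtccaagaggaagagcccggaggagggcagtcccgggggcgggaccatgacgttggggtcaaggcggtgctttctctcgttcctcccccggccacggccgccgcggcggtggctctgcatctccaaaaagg
*Adm*, chr7:110627407-110627706, plus strand: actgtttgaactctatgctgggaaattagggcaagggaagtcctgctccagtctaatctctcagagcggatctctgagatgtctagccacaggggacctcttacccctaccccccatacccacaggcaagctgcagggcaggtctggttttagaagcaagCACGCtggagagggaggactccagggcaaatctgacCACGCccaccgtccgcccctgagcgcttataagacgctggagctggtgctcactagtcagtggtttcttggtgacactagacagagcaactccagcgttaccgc
*Bnip3*, chr7:138909457-138909756, minus strand: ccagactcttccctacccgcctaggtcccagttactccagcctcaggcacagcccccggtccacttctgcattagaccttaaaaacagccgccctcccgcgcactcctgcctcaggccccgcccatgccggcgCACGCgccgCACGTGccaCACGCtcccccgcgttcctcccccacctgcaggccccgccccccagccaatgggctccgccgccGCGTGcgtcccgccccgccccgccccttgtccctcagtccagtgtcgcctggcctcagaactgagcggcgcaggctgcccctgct
In *Car9* the single core, read as CACGT on the printed strand, began 18 bases before the start site. *Bnip3* held 5 matches between 117 and 35 bases before the start, and 1 pair of them overlaps in the palindrome CACGTG, which counts on both strands. At least 1 core was present in 31 of the 41 promoters (75.6%), against 43.8% of the 32851 promoters of the table. Counted by gene, 27 of 30 genes had a promoter with a core (90.0%), against 46.7% of 27025 genes. Base composition was not matched in this comparison. Among genes with a promoter here, 16 of 17 called lower had a core (94.1%) and so had 10 of the 12 other tested genes (83.3%), a difference that was not tested. *Wsb1*, which was not called, had 6 matches in 1 of its promoters, whereas *Gys1*, which fell, had none in its single promoter. A match is a run of letters and does not show that HIF bound there.

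A signal below means the log2 of the processed intensity of a probe minus the 75th percentile of its array, so that 0 stands for that percentile, and signals of different probes cannot be compared as levels. The log2 fold change is the HX630 mean minus the control mean of these signals, given with its standard error (SE). A gene was called lower or higher when limma gave an adjusted p below 0.01, corrected over all probes tested, and the fold change was above 1.5. The 75th percentile of the intensities was 1335 to 1862 on the control arrays and 1802 to 1900 on the HX630 arrays, and no spot was saturated. Between 69.7% and 73.5% of probes were well above background on each array. All 8 corticotroph markers examined, among them *Pomc* and *Tbx19*, exceeded background clearly on each of the 4 control arrays. Of the markers of other cells with a probe, 3 of 8 for other pituitary hormone cells, 2 of 6 for fibroblasts, 3 of 5 for endothelium and 1 of 4 for leukocytes were not well above background on any array. In units of the 75th percentile, the summed corticotroph level was 663 to 825 in controls and 485 to 507 with HX630. That sum follows its brightest genes. Of the 8 corticotroph markers 2 were called lower and 2 higher, beside 11.2% and 8.39% of all genes. Those lower were *Pcsk1* (-2.06) and *Cpe* (-0.96), and those higher were *Crhr1* (1.11) and *Neurod1* (0.72). The summed leukocyte level, nearly all of it *Cd3e*, was 2.28 to 2.91 in controls and 0.98 to 1.10 with HX630. Endothelial markers summed to 2.71 to 3.36 and 2.16 to 2.64, other pituitary hormone markers to 0.156 to 0.297 and 0.194 to 0.232, and fibroblast markers to 0.109 to 0.130 and 0.116 to 0.164. The part of these markers in the results was not tested. The 4 controls shared 1 slide and scan and the 4 HX630 samples shared a different slide and scan, and these cannot be told apart from the treatment.

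Most of the hypoxia-induced genes were lower in HX630-treated cells. Of the 35 tested, 20 were called lower (57.1%), where the same rule called 11.2% of all tested genes lower. None was called higher by limma or by the methods' t-test, where limma called 8.39% of all genes, and 6 were higher at an unadjusted p below 0.05, beside 31.6% of all genes. The median log2 fold change was -0.83 for the 35 genes and -0.03 for all genes. The share of higher genes among all calls depended on scaling, at 42.9% here, 52.1% after quantile normalization, 54.7% with arrays set to their median and 71.8% with arrays set to the spike-in controls. Spike-in scaling moved the median of all genes to 0.19 and that of these genes to -0.60, a shift of every gene by the same amount, which leaves the gap of -0.80 between the medians as it was. With normexp background correction, which moves genes unequally, the gap was -0.67.

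In bulk RNA, fewer expressing cells and less RNA per cell cannot be told apart. The falls were not of one size. *Car9*, *Adm*, *Egln3* and *Bnip3* fell more than 4-fold, and so did *P4ha2* by its fitted value, although only a bound of 2.10-fold holds for that gene because its HX630 signals were not well above background. By fitted values 1.09% of all genes fell this far. Above 2-fold the fitted values counted 12 of the 35 genes, where the background was 4.76%. At an adjusted p below 0.01 with any fold change, 23 of the 35 were lower and 5 were higher, beside 27.2% and 24.0% of all genes. All 4 HX630 arrays lay below all 4 control arrays for 25 genes and above them for 6, beside 32.8% and 28.6% of all genes. The exact permutation test of a single gene gives 0.0286 in each such case, which is the smallest two-sided p for 4 against 4 arrays. The array plot shows the genes that fell doing so on every HX630 array. Control replicate 1 had the lowest signal of its group in 20 of the 35 genes, and without it the median was -0.86 and 20 genes were called lower.

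**Figure D1:**
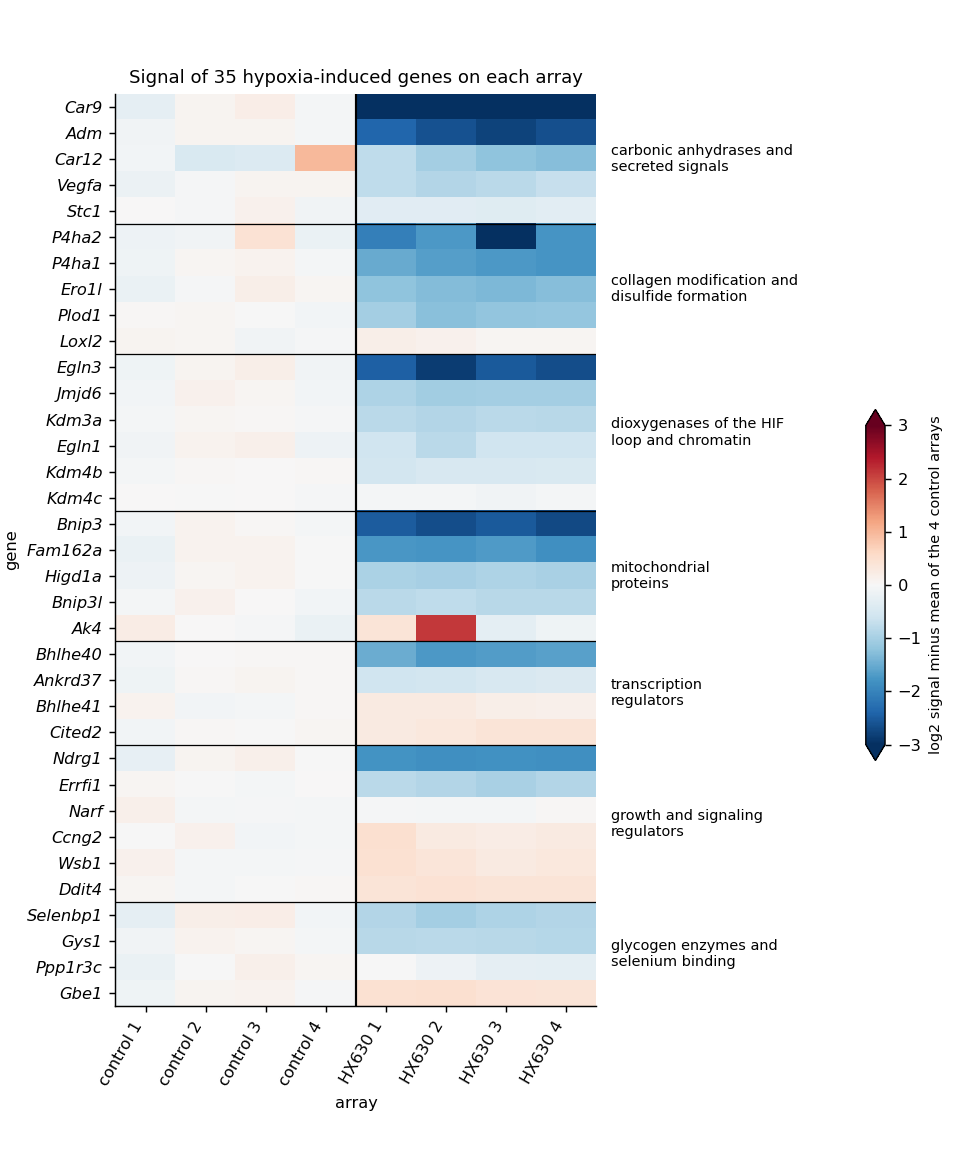
Signal of the 35 tested genes (rows, grouped by role and ordered by fold change) on the 4 control and 4 HX630 arrays (columns), as log2 signal minus the mean of the 4 control arrays of that gene. Blue is lower, red is higher, and the scale stops at -3 and 3, which *Car9* and 1 *P4ha2* array exceed; *Ak4* on HX630 array 2 is the only strongly red cell.

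Among carbonic anhydrases and secreted signals, 3 of 5 genes were called lower, all 5 had negative values, and the median log2 fold change was -1.07. Over all genes 11.2% were called lower, which is also the background for the roles below. *Car9* encodes a carbonic anhydrase of the cell surface that helps tumor cells export acid, and it is a widely used marker of hypoxia. Its signals were 1.42, 1.78, 1.90 and 1.63 on control arrays 1 to 4 and -2.58, -3.19, -2.99 and -3.17 on HX630 arrays 1 to 4. The highest HX630 array lay far below the lowest control array, and *Car9* fell by 4.67 on the log2 scale (SE 0.159, adjusted p = 3.44e-07), to 3.93% of control. It ranked 12 among all tested genes by size of fall. *Adm*, the gene of the vasodilator peptide adrenomedullin, had signals of 0.65, 0.84, 0.85 and 0.70 in controls and -1.63, -1.86, -2.02 and -1.87 with HX630. The groups were again far apart, with a log2 fold change of -2.60 (SE 0.0874, adjusted p = 3.30e-07), or 16.5% of control. *Vegfa*, the growth factor of blood vessels, had control signals of 3.00, 3.14, 3.26 and 3.26 and HX630 signals of 2.40, 2.30, 2.36 and 2.49. It fell less, by 0.78 (SE 0.0704, adjusted p = 4.31e-05), to 58.3% of control, and its other probe fell by 0.86. In the spike-in scaling *Vegfa* was at -0.55 and not called.

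*Car12*, a related surface carbonic anhydrase, was not called, at -1.07 (SE 0.311, adjusted p = 0.0187). Its control signals were -4.66, -5.03, -4.97 and -3.60, and the HX630 signals were -5.34 to -5.84. The groups did not overlap, but control replicate 4 stood above the other controls, and without it the value was -0.75 (adjusted p = 0.00459), which is a call. *Stc1*, which encodes the secreted glycoprotein stanniocalcin, was at -0.35 (SE 0.054, adjusted p = 0.000882), past the p threshold and short of the fold threshold.

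Of the 5 tested genes for collagen modification and disulfide formation, 4 were called lower, and the median was -1.29. P4HA1 and P4HA2 are catalytic subunits of the enzymes that hydroxylate prolines in collagen. *P4ha1* signals were -0.99, -0.81, -0.75 and -0.92 in controls and -2.38, -2.51, -2.58 and -2.63 with HX630. All 4 HX630 arrays lay below the controls, and the log2 fold change was -1.66 (SE 0.0728, adjusted p = 9.46e-07), with -1.18 on a second, dimmer probe. *P4ha2* was dim, at -6.15, -6.09, -5.56 and -6.18 in controls and -8.05, -7.72, -9.01 and -7.77 with HX630. It was well above background on all 4 control arrays and on no HX630 array, so it was at least 2.10-fold lower, a bound set by the dimmest signals well above background on the HX630 arrays. The fitted change was -2.14 (SE 0.297), and with normexp background correction it was -0.98, short of that bound. *P4ha2* was bright enough to test only through its control arrays, so its place among the 20 called genes adds no support. When all 8 arrays had to be well above background, *P4ha2* was not tested and 19 of 34 genes were called lower.

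*Ero1l*, an oxidase of the endoplasmic reticulum that drives disulfide formation, had signals of -0.66, -0.50, -0.28 and -0.40 in controls and -1.66, -1.76, -1.81 and -1.74 with HX630. The groups were well separated, and *Ero1l* fell by 1.29 (SE 0.0806, adjusted p = 5.67e-06), to 41.0% of control. *Plod1*, a lysyl hydroxylase of collagen, fell by 1.16 (SE 0.0598, adjusted p = 2.08e-06) and by 1.24 on its other probe. *Loxl2*, of a family of enzymes that cross-link collagen by oxidizing lysine, was not called. The brighter probe of *Loxl2* read -2.91, -2.94, -3.10 and -3.04 in controls and -2.83, -2.88, -2.95 and -2.93 with HX630. A second *Loxl2* probe read -5.50, -5.61, -5.63 and -5.63 in controls and -5.30, -5.74, -5.72 and -5.92 with HX630. The groups overlapped on both *Loxl2* probes, which differed in sign, at 0.10 (adjusted p = 0.142) and -0.08. *Lox* and *Plod2* were too dim to test. *Plod2*, another lysyl hydroxylase, was well above background on 2 control arrays and on no HX630 array, with control signals from -6.86 to -5.90 and HX630 signals from -8.67 to -6.66, which overlap.

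**Figure D2:**
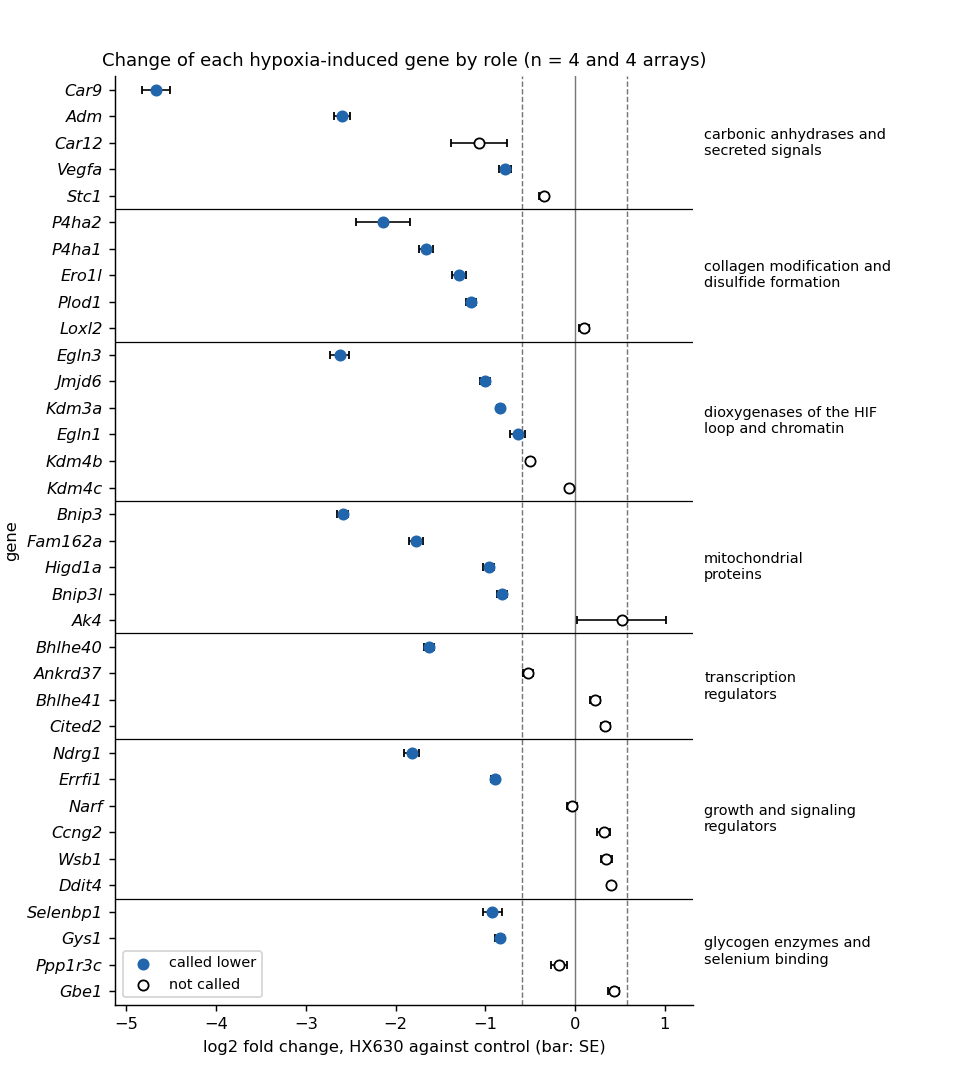
Log2 fold change of HX630 against control for each of the 35 tested genes, with bars of 1 SE (4 and 4 arrays) and dashed lines at the fold threshold of 1.5 in each direction. The 20 genes called lower (filled) lie left of the lower dashed line, *Car9* at -4.67 farthest out, and no gene was called to the right of 0, where *Ak4* has the widest bar.

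The next role holds dioxygenases of the HIF loop and of chromatin, which use molecular oxygen as a substrate. Enzymes that hydroxylate collagen were counted in the role above. Of the 6 genes in this role 4 were called lower and all 6 had negative values, with a median of -0.74. EGLN3 and EGLN1 hydroxylate the HIF alpha subunit, and their genes are HIF targets, so that the loop feeds back. *Egln3* signals were -1.27, -1.06, -0.96 and -1.25 in controls and -3.58, -3.98, -3.67 and -3.80 with HX630. The separation was wide, at a log2 fold change of -2.62 (SE 0.106, adjusted p = 6.71e-07), or 16.2% of control, and the second probe gave -2.52. *Egln1* fell by 0.64 (SE 0.0864, adjusted p = 0.000389), a fold change of 1.56, the called gene closest to the threshold. It lost its call when arrays were set to quantiles (-0.58), to the median (-0.56) or to the spike-in controls (-0.42).

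Jmjd6 and the Kdm proteins are dioxygenases of the JmjC family, and the Kdm proteins remove methyl groups from histones. Control signals of *Jmjd6* were 1.60, 1.81, 1.74 and 1.61 and HX630 signals were 0.76, 0.65, 0.67 and 0.66. *Kdm3a* read 2.52, 2.66, 2.62 and 2.56 in controls and 1.78, 1.72, 1.78 and 1.75 with HX630. Neither gene had overlapping groups. *Jmjd6* fell by 1.00 (SE 0.0581, adjusted p = 3.75e-06) and *Kdm3a* by 0.83 (SE 0.0402, adjusted p = 1.48e-06). *Kdm4b* was at -0.50 (SE 0.039, adjusted p = 1.87e-05), under the fold threshold. *Kdm4c* was at -0.07 (adjusted p = 0.0649), a sign that turned with median scaling (0.01) and spike-in scaling (0.15).

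Of the 5 genes of mitochondrial proteins 4 were called lower, with a median of -0.96. BNIP3 and its relative BNIP3L (also called NIX) sit in the outer membrane and mark mitochondria for removal by autophagy. *Bnip3* was bright, with signals of 6.42, 6.60, 6.53 and 6.43 in controls and 4.00, 3.84, 3.98 and 3.79 with HX630. It fell by 2.59 (SE 0.065, adjusted p = 1.23e-07), to 16.6% of control, with no overlap, and its other 2 probes gave -2.65 and -2.44. *Bnip3l* fell by 0.81 (SE 0.054, adjusted p = 8.11e-06), and the other 3 probes lay between -0.79 and -0.70, but with spike-in scaling it was at -0.58 and not called.

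*Fam162a* encodes a mitochondrial protein linked to cell death in hypoxia. Its signals were 5.11, 5.43, 5.43 and 5.30 in controls and 3.58, 3.54, 3.61 and 3.48 with HX630. *Higd1a*, a small inner-membrane protein associated with the respiratory chain, read 3.97, 4.20, 4.23 and 4.11 in controls and 3.18, 3.14, 3.20 and 3.16 with HX630. Both genes were separated between groups, and the HX630 arrays lay close together. *Fam162a* fell by 1.77 (SE 0.0773, adjusted p = 9.38e-07), to 29.4% of control, and *Higd1a* by 0.96 (SE 0.0595, adjusted p = 5.34e-06), to 51.4%. The exception was *Ak4*, an adenylate kinase of the mitochondrial matrix, at 0.52 (SE 0.499, adjusted p = 0.399). It was dim, and its HX630 signals of -5.34, -3.61, -6.03 and -5.87 overlapped the controls (-5.93 to -5.51). Without HX630 replicate 2 the value was -0.01.

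**Figure D3:**
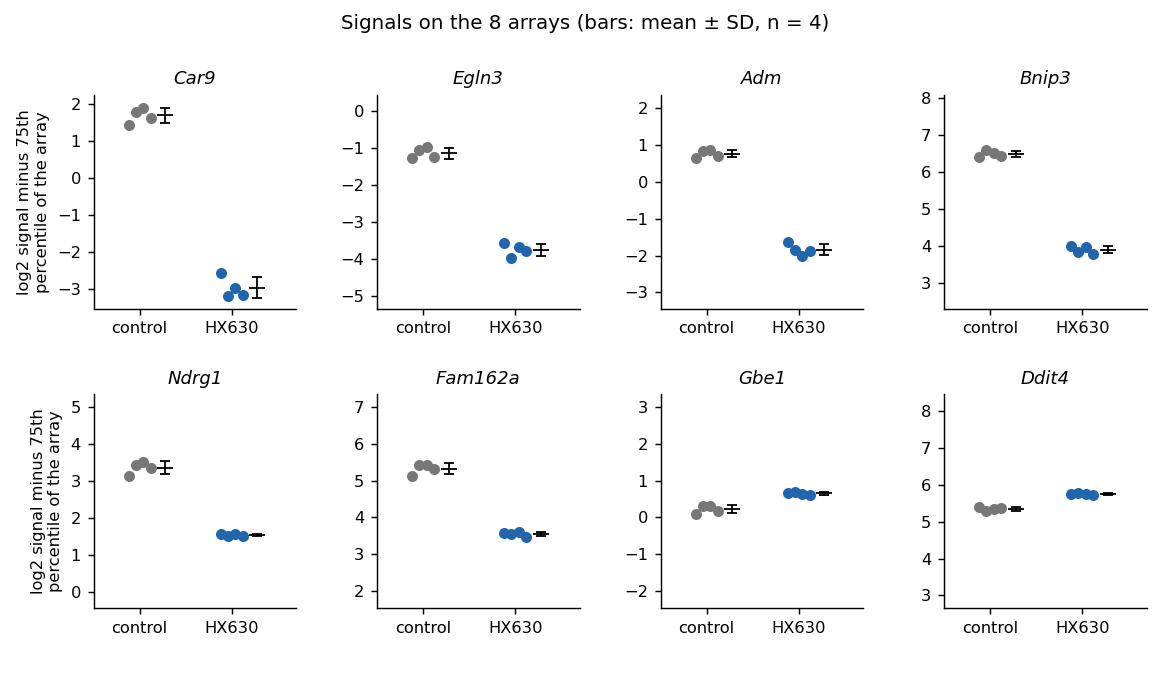
Signals (log2 intensity minus the 75th percentile of the array) on the 4 control and 4 HX630 arrays for the 6 genes with the largest falls and the 2 with the largest positive values, among genes well above background on all arrays with an SE under 0.2; bars give mean ± SD (n = 4), and all panels span the same height. In *Car9*, *Egln3*, *Adm*, *Bnip3*, *Ndrg1* and *Fam162a* the HX630 points lie well below the control points, and in *Gbe1* and *Ddit4* they lie 0.43 and 0.40 above them.

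Transcription regulators were mixed, with 1 of 4 tested genes called and a median of -0.15 that turned to 0.08 with spike-in scaling. *Bhlhe40*, a basic helix-loop-helix repressor that also acts in the circadian clock, had signals of -0.13, -0.04, -0.01 and -0.02 in controls and -1.55, -1.78, -1.72 and -1.67 with HX630. It fell by 1.63 without overlap (SE 0.0573, adjusted p = 4.04e-07). Its relative *Bhlhe41* did not fall. The value was 0.22 (SE 0.057, adjusted p = 0.0117), and the other probe gave 0.48. *Cited2*, whose protein competes with HIF for the coactivators CBP and p300, was at 0.34 (SE 0.0455, adjusted p = 0.000408), under the fold threshold, and at 0.41 on its other probe. *Ankrd37*, an ankyrin-repeat protein, was at -0.52 (SE 0.0562, adjusted p = 0.000111), also under the fold threshold. *Mxi1*, a Max partner that opposes Myc, was not well above background on any array.

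Growth and signaling regulators were divided too, and their median was 0.14. *Ndrg1*, a cytoplasmic stress-response protein, had signals of 3.12, 3.44, 3.52 and 3.34 in controls and 1.57, 1.51, 1.55 and 1.51 with HX630. *Errfi1*, an inhibitor of the EGF receptor, read 1.92, 1.84, 1.78 and 1.85 in controls and 1.04, 0.96, 0.87 and 0.97 with HX630. Neither gene overlapped between the groups. *Ndrg1* fell by 1.82 (SE 0.082, adjusted p = 1.07e-06), to 28.2% of control, and *Errfi1* by 0.89 (SE 0.0483, adjusted p = 2.69e-06), to 54.1%.

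The other 4 genes of this role were not called. *Ddit4*, an inhibitor of mTOR, was at 0.40 (SE 0.0361, adjusted p = 4.22e-05), with control signals from 5.29 to 5.40 and HX630 signals from 5.73 to 5.79. All of its HX630 arrays lay above the controls, and it was called higher after quantile normalization (0.60) and with spike-in scaling (0.63). *Wsb1*, an adaptor of a ubiquitin ligase, was at 0.35 (adjusted p = 0.00158), and *Ccng2*, a cyclin linked to arrest of the cell cycle, at 0.32 (adjusted p = 0.00611), both under the fold threshold with no overlap. *Narf*, which encodes a protein that binds prelamin A, was at -0.03 (adjusted p = 0.629), with a sign that turned after quantile normalization, with median scaling and with spike-in scaling.

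Among genes of glycogen metabolism and selenium binding, 2 of 4 were called lower and the median was -0.51. *Selenbp1*, a selenium-binding protein that oxidizes methanethiol, had signals of 0.15, 0.59, 0.61 and 0.33 in controls and -0.45, -0.59, -0.50 and -0.45 with HX630. *Gys1*, the glycogen synthase of muscle and most other tissues, read 2.18, 2.38, 2.35 and 2.22 in controls and 1.45, 1.47, 1.44 and 1.42 with HX630. Both were lower on every HX630 array. *Selenbp1* fell by 0.92 (SE 0.105, adjusted p = 0.000166) and *Gys1* by 0.84 (SE 0.0519, adjusted p = 5.33e-06), with -0.81 on the other *Gys1* probe. *Gbe1*, the glycogen branching enzyme, had the opposite sign, with control signals from 0.09 to 0.32 and HX630 signals from 0.60 to 0.70. At 0.43 (SE 0.0598, adjusted p = 0.000499) it was under the fold threshold, and with spike-in scaling it was called higher (0.65). *Ppp1r3c*, which targets a phosphatase to glycogen, was at -0.18 (adjusted p = 0.131), its groups overlapped, and with spike-in scaling it stood at 0.05.

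HIF itself and its regulators were set beside these genes from a list of 16, of which 15 were tested. Only *Arnt* was called, and it was lower, beside 11.2% of all genes called lower and 8.39% called higher. At an unadjusted p below 0.05 in the same limma fit, 8 of the 15 were higher (31.6% of all genes). The median of the list was 0.10. It was 0.33 with spike-in scaling, which moved the median of all genes to 0.19. *Arnt* encodes the shared partner of the HIF alpha subunits. Its signals were 2.27, 2.30, 2.20 and 2.34 in controls and 0.97, 0.87, 0.88 and 0.92 with HX630. The groups were far apart, and *Arnt* fell by 1.37 (SE 0.0421, adjusted p = 2.45e-07), by 1.74 on its other probe, and by 1.14 with spike-in scaling. *Hif1a* stood at 0.30 (adjusted p = 0.00742), *Epas1*, the gene of HIF-2α, at -0.35 (adjusted p = 0.00233), and *Vhl* at 0.37 (adjusted p = 0.00015), all under the fold threshold. In the spike-in scaling *Vhl* was called higher, at 0.60, and *Hif1a* was at 0.53, not called. *Epas1* was at -0.12 with spike-in scaling (adjusted p = 0.112) and at -0.18 with normexp (adjusted p = 0.0867). These are RNA levels, and HIF protein was not measured on the arrays.

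**Figure D4:**
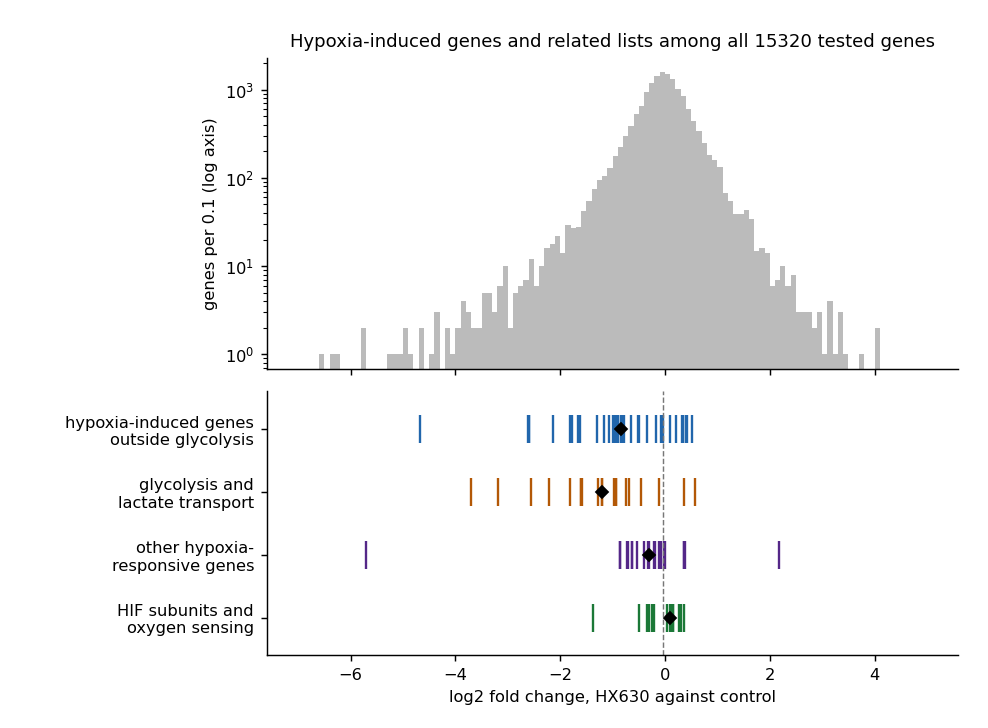
Upper panel, number of genes by log2 fold change for all 15320 tested genes (log axis); lower panel, each tested gene of 4 lists as a line, with the median of the list as a diamond and the median of all genes as a dashed line. The medians are -0.83 for the hypoxia-induced genes outside glycolysis, -1.20 for glycolysis and lactate transport, -0.31 for other hypoxia-responsive genes and 0.10 for HIF subunits and oxygen sensing.

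Glycolysis, the other arm of the hypoxia response, was lower as well. Here 17 of 21 genes were called lower, beside 11.2% of all genes, and the median was -1.20. Other scalings gave 15 to 17 genes called lower and at most 2 called higher. The called genes of this list with the largest fitted falls were *Pfkfb3*, a kinase that stimulates glycolysis, *Hk2*, a hexokinase (-3.18, adjusted p = 8.94e-08), and *Slc2a1*, the glucose transporter GLUT1 (-2.55, adjusted p = 9.09e-08). *Pfkfb3* was well above background on no HX630 array and was at least 3.73-fold lower, so its place in that order is not known. It was bright enough to test only through its control arrays, so its place among the 17 called genes adds no support. With normexp it was at -1.68, short of that bound. A further list held 25 genes that respond to hypoxia in some cell types, 21 of them tested. It had 7 called lower and 1 called higher, beside 11.2% and 8.39% of all genes, and a median of -0.31. With spike-in scaling these counts were 3 and 4, beside 6.55% and 16.7% of all genes, and the median was -0.08. *Hmox1*, whose enzyme degrades heme, fell by 0.86 (adjusted p = 0.000258), and the cytokine gene *Mif* by 0.86 (adjusted p = 1.12e-05), although *Mif* was at -0.54 and not called after quantile normalization. *Cxcr4*, a chemokine receptor gene also counted among HIF targets, rose instead, by 2.18 (adjusted p = 9.09e-08), or by 1.26 with normexp (adjusted p = 0.000716).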

How the data were processed

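Labeled cRNA was hybridized to 4x44K mouse arrays and read with Agilent Feature Extraction, version 10.7.3.1 in the submitters' processing notes. The authors deposited, for each array, the intensity of every spot after background subtraction and spatial detrending, and a table of log2 values that matched the log2 intensity minus the 75th percentile of the array. From the intensities, control and outlier spots were left out, log2 values were averaged by probe, and each array was reduced by its 75th percentile. Tests covered the 28553 of 39429 probes that Feature Extraction marked as well above background on 4 or more of 8 arrays. They were fitted in R 4.3.3 with limma 3.58.1 (lmFit and eBayes, 4 against 4, no block), with Benjamini-Hochberg adjustment. A gene was read from its brightest tested probe. RefSeq accessions (GRCm38.p6) named 66.1% of probes. The permutation tests were exact and two-sided, over 70 regroupings. The code was tested on simulated data.

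The genes and lists were chosen with earlier results of these data known. Given with all 8 values were up to 3 called genes with the largest falls in each role, any gene called higher and any gene whose probes disagreed. In each related list up to 3 called genes with the largest changes were named, and *Hif1a*, *Epas1*, *Arnt* and *Vhl* always. Of the genes this rule names, 1 is not reported here. The labels do not say that replicates were separate cultures, so p-values measure only the spread between these samples, which may be technical. The number of arrays limits the precision. Alternatives varied the scaling, background, filter, test, threshold and block, or omitted 1 array at a time.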

Additional observations from a re-analysis of the deposited data

Results flagged for a closer look

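In 5 of 70 groups of 4 arrays, 1 array stood apart from the other 3 by more than the 95% critical value of Dixon's test. Chance flags about 1 group in 20, or 3.5 of these 70. *P4ha2* on control replicate 3 was at -5.56 against a mean of -6.14 for the others (gap over range 0.848). *Egln1* on HX630 replicate 2 was at -3.29 against -3.09 (0.941). *Jmjd6* on HX630 replicate 1 was at 0.76 against 0.66 (0.846). *Ddit4* on HX630 replicate 2 was at 5.79 against 5.74 (0.898). *Narf* on control replicate 1 was at -1.30 against -1.49 (0.919). *Ak4* on HX630 replicate 2 and *Car12* on control replicate 4, described above, did not pass this limit.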

How the results depend on the processing

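The results were recomputed in 24 alternatives. The number of genes called lower stayed between 17 and 23 of the 35 in all of them except a fold threshold of 2, which left 12. With spike-in scaling 17 of the 20 calls were shared. Of the 35 genes, 1 was called higher after quantile normalization, 2 with spike-in scaling and 5 with no fold threshold. The same alternatives called 10.5%, 16.7% and 24.0% of all genes higher. The median of -0.83 became -0.75 with median scaling and -0.60 with spike-in scaling. Over all genes, 1710 were called lower and 1285 higher. Spike-in scaling gave 1004 and 2556, no fold threshold 4164 and 3679, and a fold threshold of 2 gave 729 and 477. Signs turned for *Narf* (0.01 after quantile normalization, 0.05 with median scaling, 0.20 with spike-in scaling, and -0.06 to 0.02 when leaving out 1 array), *Kdm4c* (0.01 with median scaling, 0.15 with spike-in scaling), *Ppp1r3c* (0.05 with spike-in scaling) and *Ak4* (0.00 with normexp, and -0.01 to 0.80 when leaving out 1 array). The cause was not tested. Of 839 values of single genes, 805 kept direction and call, 12 gained a call, 13 lost one and 9 changed sign. Normexp used the median spot intensity. The same replicate number stands for the same position on the 2 slides. Deviations of same-numbered arrays correlated at 0.52, -0.0093, 0.24 and 0.38, and 5 of 8 arrays correlated best with their own number. Whether arrays in the same position share an effect was not tested. The labels do not say that the numbers pair the samples, and the main fit did not pair them. With the replicate block 20 genes were called lower and none higher, and all genes gave 1780 and 1335. Dim probes such as *P4ha2*, *Car12* and *Ak4* lie near background, where their values are least certain.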
